A study of Mus musculus with 18 samples.

Results

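The response to U73122 was described on 6 of the 18 Illumina mouse bead arrays of a study of sorted colon tumour cells, those whose labels name mouse 7. They were chosen by label alone: 3 arrays of treated cells were compared with 3 arrays of untreated cells, across 9388 genes out of 45281 probes. U73122 is a small molecule widely used to inhibit phospholipase C, and the study names the epsilon form, encoded by Plce1, as its target. Per the labels, the source was a colon tumour of a C57Bl/6 mouse, 17 weeks old, of the genotype Fapbl-Cre;Apc2lox14/+;tet-KrasLSL-G12D/+, abbreviated FAK. Cells carrying CD110, the thrombopoietin receptor, were taken with magnetic beads. Both groups were kept with Dox (doxycycline), and the treated group received 1 µM U73122 for 24 h. The labels number the replicates 1 to 3 in each group and leave unsaid whether these were separate cultures, so each p-value reflects the spread between these samples alone, possibly a technical one. Per the labels the number names a single mouse, and whether all 6 arrays came from it was not tested. The Cre driver is given there only as Fapbl.

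The transcripts on these arrays go against the tissue named by the label. Of 16 hepatocyte markers with a probe, all 6 arrays detected 15, with a median normalized log2 signal of 14.09 over the list. Hpx, which encodes the heme carrier hemopexin, measured 14.28, 14.41 and 14.32 with U73122 and 14.51, 14.52 and 14.40 without it. Apoa1, the main protein of high-density lipoprotein, averaged 14.00 ± 0.04 on the treated and 14.14 ± 0.03 on the untreated arrays (SD, n = 3 each). Both lie near the top of the scale. Exceptions in the list were the probes for Alb, the gene of albumin, with a level between 4.97 and 6.17, and Tat, between 4.63 and 5.73. The marker that no array detected was Fgb. Of 23 colon epithelium markers, 9 were detected on all 6 arrays and 4 on none. Epcam, a surface protein of epithelial cells, and Cdx2, an intestinal transcription factor, were detected on 0 of the 6 arrays. Other members of the colon list were bright on all 6, among them Krt8, Krt18 and Cldn3, with means of 12.56, 11.28 and 10.38. The arrays are therefore called those labelled mouse 7. The median difference of the 15 tested hepatocyte markers was -0.02, against 0.00 over all 9388 genes. The detection of Plce1 was marginal. It read 5.01, 4.69 and 4.77 after treatment and 4.94, 5.21 and 5.05 in untreated cells, was detected on 1 treated and 3 untreated arrays, and differed by -0.24 ± 0.16 (SE, adjusted p = 0.489). Transcript level does not measure whether the enzyme was inhibited.

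Hepatocytes make most plasma proteins, and during inflammation they switch to the acute phase response. Interleukin-6, acting through JAK kinases and STAT3, and interleukin-1, acting through NF-kappa-B, raise secreted proteins such as serum amyloid A, with C/EBP factors binding the promoters of many of these genes. The same cells store glucose as glycogen and convert it to fatty acids when food is plentiful, while resident macrophages, the Kupffer cells, line the blood vessels of the liver.

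The treated arrays carried more transcript of several acute phase genes and less of a small set of glycogen and lipid genes. After Benjamini-Hochberg adjustment of limma's test, 19 of 9388 genes (0.202%) passed a threshold of 0.05, with 13 higher (0.138%) and 6 lower (0.0639%) in treated cells. The 13 that rose were Saa2, Saa1, Mt2, Cxcl9, Orm2, Lcn2, Saa3, Serpina3f, Hgd, Ctla2b, Il1rn, Socs2 and Fah. The 6 that fell were Mid1ip1, Ppp1r3c, Ppp1r3b, Cyp26a1, Slc30a10 and Bhlhe40. The treated arrays all lay above the untreated arrays for 11.6% of genes and all below them for 10.7%. In limma's test 14.9% of genes had an unadjusted p under 0.05, 781 higher and 615 lower. Counts for the gene lists below stand against these shares. The lists were chosen with earlier results of these data known, so such counts are descriptions. A gene was tested where its probe was detected on all 3 arrays of at least 1 group, and 724 genes passed that filter through 1 group alone, so counts over tested members of a list leave out its undetected members. The count depended on single arrays. It was 97 without treated replicate 1, with all 19 kept, and 18 without either of the other treated replicates, with 13 and 10 kept. It was 2 without untreated replicate 1 (Saa1 and Hgd), 4 without untreated replicate 2 (Saa1, Orm2, Ppp1r3b and Ppp1r3c) and 0 without untreated replicate 3, where limma still placed 894 genes at an unadjusted p under 0.05, against 1396 with all 6 arrays. With the spread pooled over all 18 arrays of the study, 94 genes (1.00%) passed, 16 of them shared with the 19. Lcn2, Socs2 and Bhlhe40 did not pass there. Genes at background on the other arrays of the study, such as Saa2, Serpina3f, Cyp26a1 and Slc30a10, get a spread that is too small in that fit.

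**Figure D1:**
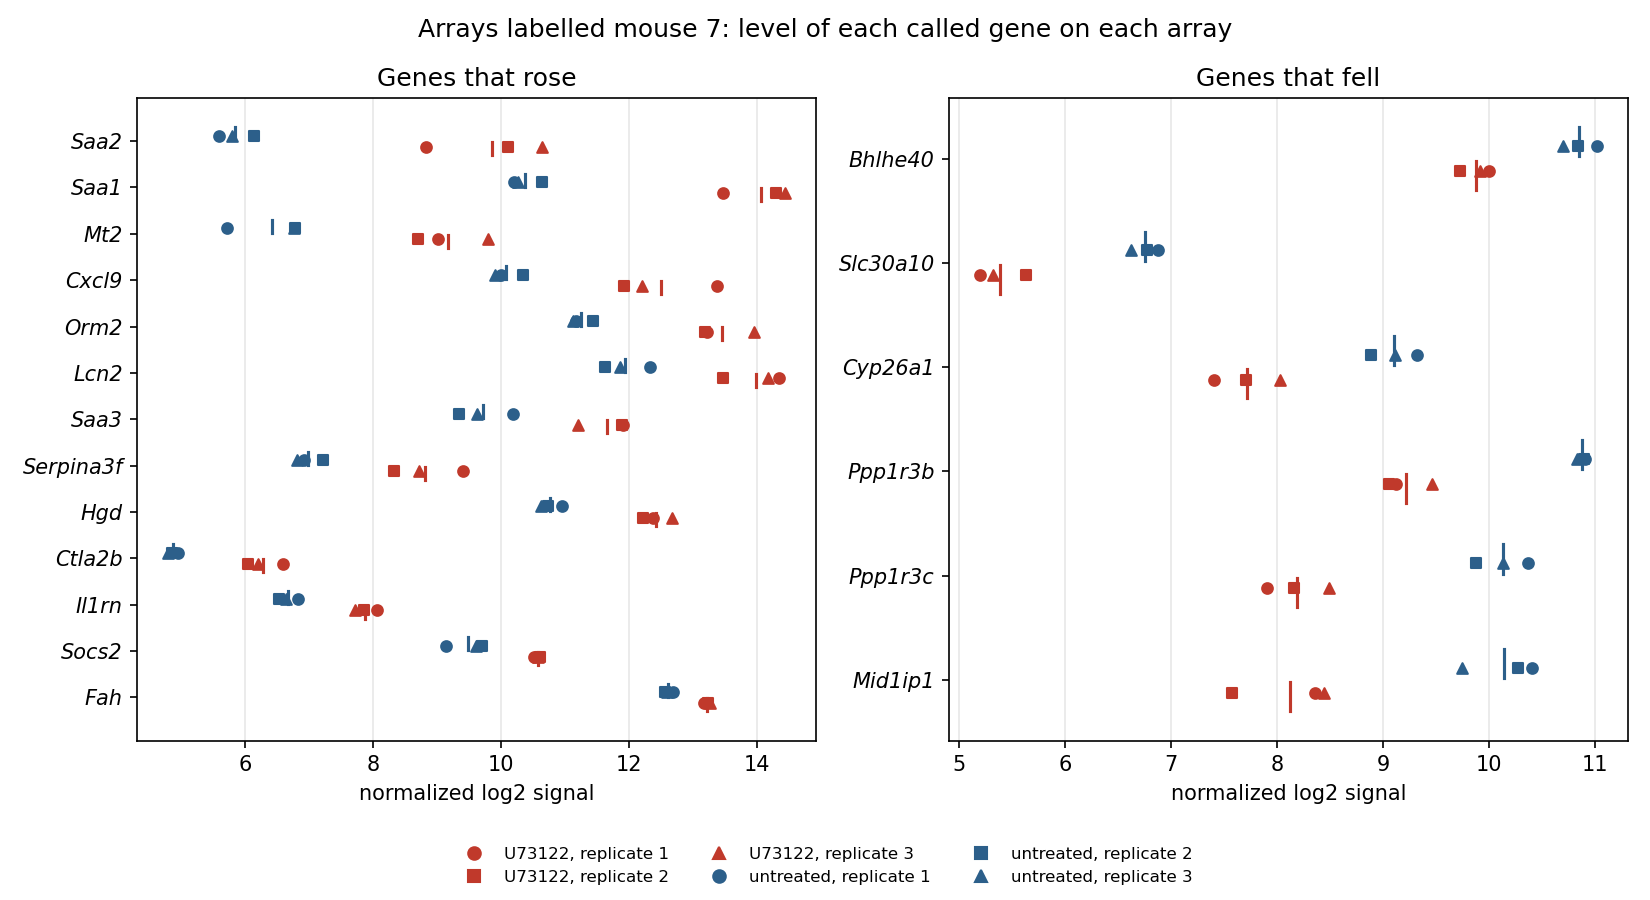
Normalized log2 signal (x axis) of the 13 genes that rose and the 6 that fell on each of the 6 arrays labelled mouse 7; shapes give the replicate, colours the group and vertical bars the group means (n = 3). No treated array overlaps an untreated array for any of the 19 genes, and Saa2 and Saa1 show the largest differences, 4.02 and 3.70.

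**Figure D2:**
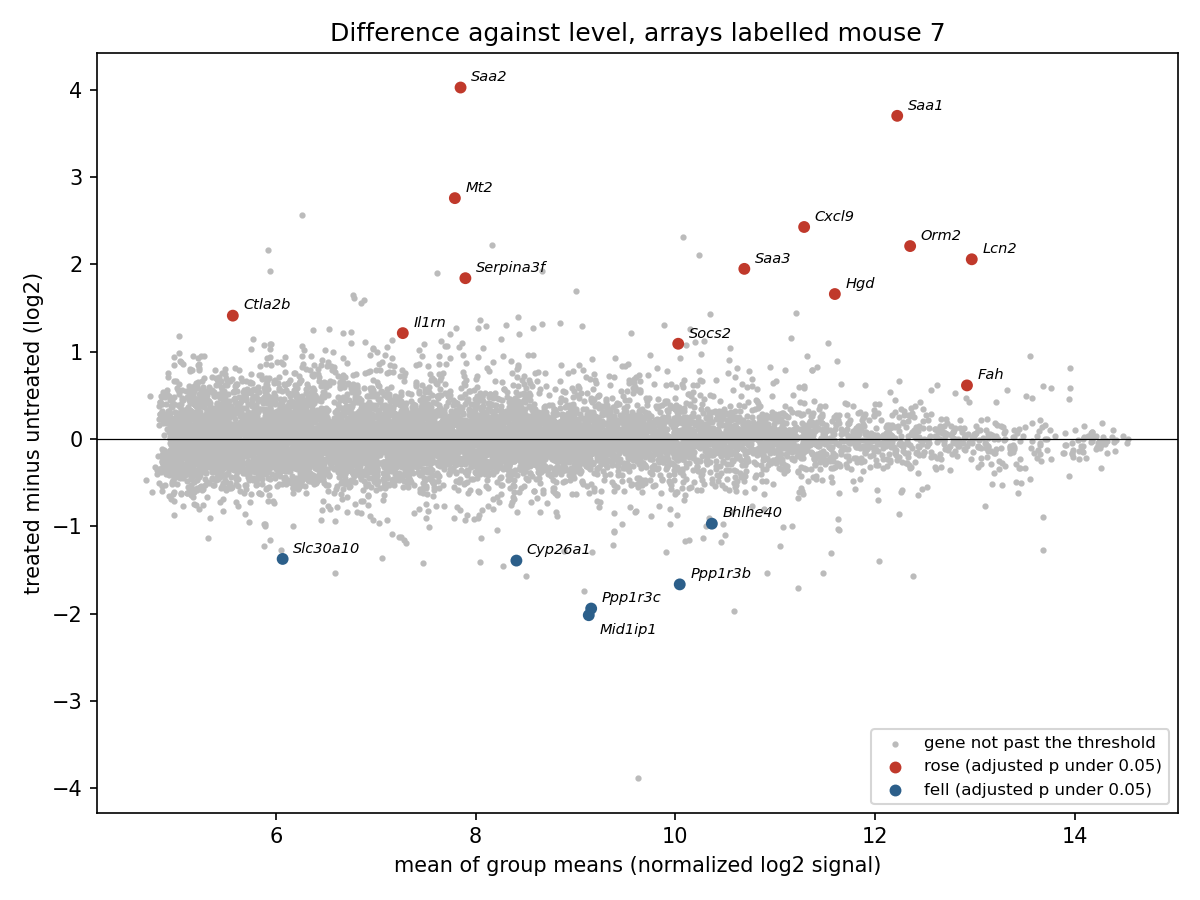
Treated minus untreated difference (log2, y axis) against the mean of the group means (normalized log2 signal, x axis) for 9388 genes; coloured points passed an adjusted p of 0.05. The lowest grey point is Thrsp at -3.88, whose treated arrays spread from 5.46 to 9.70.

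Treated replicate 1 stood apart from the other 5 arrays. Its correlation with them over all tested genes lay between 0.959 and 0.976, while the others correlated with each other at 0.983 to 0.992. On it, 377 genes lay over 1 log2 unit from the mean of the other arrays of its group, against 72 and 153 on treated replicates 2 and 3 and 13 to 44 on the untreated arrays. Detected probes made up 38.2% to 40.6% of an array, and the number of arrays limits the precision.

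The promoters of the 3 genes with the largest rises and of the gene with the largest fall are shown because most of the genes that rose share a short motif in this window. Each line gives the 250 bases before the transcription start (RefSeq, build GRCm38.p6), read 5′ to 3′ on the gene's own strand. Capitals mark matches to a C/EBP motif (TTGCNNAA) in all 4 promoters and, in Mt2, also matches to a metal response element (TGCACNC), both searched on both strands. The windows are chr7:46751583-46751832 on the plus strand for Saa2, chr7:46742981-46743230 on the minus strand for Saa1, chr8:94172368-94172617 on the plus strand for Mt2 and chrX:10717115-10717364 on the plus strand for Mid1ip1.
Saa2: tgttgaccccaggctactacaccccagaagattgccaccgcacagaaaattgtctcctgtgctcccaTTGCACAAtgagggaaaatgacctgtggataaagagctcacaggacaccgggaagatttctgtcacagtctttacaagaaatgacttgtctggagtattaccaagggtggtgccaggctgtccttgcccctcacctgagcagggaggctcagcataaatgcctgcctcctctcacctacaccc
Saa1: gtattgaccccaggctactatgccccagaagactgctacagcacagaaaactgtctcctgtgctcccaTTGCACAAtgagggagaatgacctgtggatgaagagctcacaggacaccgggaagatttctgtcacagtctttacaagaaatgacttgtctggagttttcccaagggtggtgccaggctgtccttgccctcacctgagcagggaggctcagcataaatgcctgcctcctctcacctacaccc
Mt2: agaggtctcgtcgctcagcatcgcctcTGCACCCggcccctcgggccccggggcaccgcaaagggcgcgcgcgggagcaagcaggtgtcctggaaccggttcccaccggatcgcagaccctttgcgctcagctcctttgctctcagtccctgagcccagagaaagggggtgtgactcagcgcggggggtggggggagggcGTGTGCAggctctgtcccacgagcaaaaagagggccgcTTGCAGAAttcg
Mid1ip1: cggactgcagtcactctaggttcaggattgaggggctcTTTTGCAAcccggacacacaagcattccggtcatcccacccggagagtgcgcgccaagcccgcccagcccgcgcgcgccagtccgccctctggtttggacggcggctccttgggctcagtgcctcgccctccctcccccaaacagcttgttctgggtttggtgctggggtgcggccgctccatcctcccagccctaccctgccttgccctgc
The Saa1 and Saa2 windows lie head to head with 8352 bases between them and match at 94.8% of aligned positions, so these are near copies. In both, TTGCACAA begins 183 (Saa2) or 182 (Saa1) bases before the start. For the metal response element only the form TGCACNC was searched. In Mt2 this form occurs as TGCACCC, 223 to 217 bases before the start, and on the other strand as GTGTGCA, 50 to 44 bases before it. TTGCAGAA follows at 12 to 5 bases before the start of Mt2. In Mid1ip1 the match is on the other strand, TTTTGCAA, 212 to 205 bases before the start.

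Of the 13 genes that rose, 12 had a promoter in the reference table, and 8 of those (66.7%) held the C/EBP motif. It was present in 7.76% of the 7642 tested genes with a promoter and in 9.55% of all 27025 promoters. Besides Saa2, Saa1 and Mt2, the holders were Orm2 (TTGCGCAA, 120 to 113 bases before the start), Lcn2 (TTGCTCAA, 216 to 209), Saa3 (TTATGCAA, 99 to 92), Serpina3f (TTTTGCAA, 150 to 143, and TTCAGCAA, 22 to 15) and Hgd (TTGTGCAA, 49 to 42). The share is a description of this window, Saa1 and Saa2 count as related sequences, and a match is not a measured binding site. A STAT motif (TTCNNNGAA) was present in 1 of the 12, Serpina3f, and in 6.15% of tested genes. Among 41 further genes that were higher only with the spread pooled over 18 arrays, 5 (12.2%) held the C/EBP motif. The interferon-stimulated response element was held by 7 (17.1%) of them and by 2.9% of tested genes. It was searched as GAAA, any 2 bases and GAAA on both strands. The pooled spread is too small for genes at background on the other arrays, so membership of this set is uncertain. Mid1ip1 was the only one of 4 genes that fell, among those with a promoter in the table, to hold the C/EBP motif.

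The serum amyloid A proteins, small apolipoproteins made in the acute phase, included the 2 largest rises. Saa2 stood at 8.82, 10.11 and 10.65 in the treated and at 5.59, 6.13 and 5.80 in the untreated replicates, a difference of 4.02 ± 0.41 (SE, adjusted p = 0.0107). Saa1 measured 13.48, 14.30 and 14.44 with U73122 and 10.21, 10.65 and 10.27 without it, a difference of 3.70 ± 0.24 (SE, adjusted p = 0.00219). Each untreated array lay more than 2 log2 units below each treated array for both genes, and treated replicate 1 was the lowest of its group for both. As near copies, Saa1 and Saa2 cannot be counted as independent, and a second, dimmer Saa1 probe differed by 3.34. The treated levels of Saa1 lie as near the top of the scale as those of Hpx, which limits how exactly its difference is known: with the 18 arrays normalized together it was 4.09, above the 3.69 of Saa2. Saa3, a form made also by macrophages, had signals of 11.90, 11.89 and 11.20 on the treated and 10.19, 9.34 and 9.62 on the untreated arrays and rose by 1.95 ± 0.25 (SE, adjusted p = 0.0332). Apcs, the serum amyloid P component, differed by 0.38 ± 0.24 (SE, adjusted p = 0.477) with overlapping groups. In all, 3 of the 6 tested genes of the serum amyloid and pentraxin list rose and none fell, with a median difference of 1.16.

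Most other acute phase genes lay in the same direction. Orm2, the plasma protein orosomucoid, read 13.23, 13.19 and 13.96 after treatment and 11.17, 11.44 and 11.13 in untreated cells and rose by 2.21 ± 0.20 (SE, adjusted p = 0.00816). Lcn2, an iron-siderophore binding protein made by hepatocytes and neutrophils, stood at 14.35, 13.48 and 14.18 in the treated and at 12.34, 11.63 and 11.86 in the untreated replicates and rose by 2.06 ± 0.25 (SE, adjusted p = 0.031). Its treated levels too lie near the top of the scale, and over 18 arrays its difference was 2.43. Il1rn, the interleukin-1 receptor antagonist, measured 8.06, 7.85 and 7.72 with U73122 and 6.82, 6.53 and 6.64 without it and rose by 1.21 ± 0.15 (SE, adjusted p = 0.0312). None of these groups overlapped, and the brighter of 2 Il1rn probes carried the result, while the dimmer differed by 0.40. Fgl1, a secreted fibrinogen-like protein, differed by 0.95 ± 0.17 (SE, adjusted p = 0.102). Of 18 tested acute phase genes outside the serum amyloids, 3 rose and none fell, and the median difference was 0.45. A higher treated mean was seen for 17 of the 18. The exception was Hpx, at -0.14 ± 0.08 (SE, adjusted p = 0.432), whose 2 probes disagree, as the other differed by 0.25. For 12 of the 18 the groups did not overlap and the treated arrays were higher, against the background of 11.6%. The list was chosen with earlier results of these data known, so this comparison is a description and not a test. Serpina3f, a member of the antichymotrypsin-like serpins, had signals of 9.40, 8.33 and 8.72 on the treated and 6.91, 7.21 and 6.80 on the untreated arrays and rose by 1.84 ± 0.26 (SE, adjusted p = 0.0459). Plasma proteins known to decline in the acute phase showed no call: 0 of 10 passed limma's test (0 higher and 0 lower at an unadjusted p under 0.05), with a median of -0.09. Among them Serpina6, the corticosteroid carrier, differed by -0.62 ± 0.37 (SE, adjusted p = 0.445) and Rbp4, the retinol carrier, by -0.19 ± 0.13 (SE, adjusted p = 0.504). Some members of this list, such as Apoa2 with a mean of 14.2, lie near the top of the scale, which limits how exactly their differences are known. Coagulation genes had a median of -0.06 over 16 genes and apolipoproteins one of -0.00 over 18 (with each array left out in turn, -0.15 to 0.04 and -0.02 to 0.01), with no call in either list and 0 genes of either at an unadjusted p under 0.05.

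Complement genes were mixed. None of 21 passed (8 higher and 1 lower at an unadjusted p under 0.05). The treated arrays were all higher for 7 and all lower for 1, against 11.6% and 10.7% of all genes. The median was 0.15. It ran from 0.05 to 0.24 as each array was left out in turn, and without treated replicate 1 calls numbered 4 higher and 0 lower, the 4 being Cfp, C1qa, C1qb and C1qc. Cfp (properdin, made by myeloid cells) differed by 0.95 ± 0.20 (SE, adjusted p = 0.134) and C1qa, a subunit of C1q made by macrophages, by 0.92 ± 0.20 (SE, adjusted p = 0.14). Mbl2, a mannose-binding lectin made by hepatocytes, differed by -0.51 ± 0.11 (SE, adjusted p = 0.141) in the other direction.

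Within cytokine signalling, 1 gene passed. Socs2, an inhibitor of JAK and STAT signalling and a target of growth hormone, read 10.52, 10.62 and 10.58 after treatment and 9.14, 9.71 and 9.61 in untreated cells and rose by 1.09 ± 0.16 (SE, adjusted p = 0.0466). Stat3, the factor that interleukin-6 activates, stood at 10.59, 10.54 and 10.47 in the treated and at 9.69, 10.14 and 9.90 in the untreated replicates and differed by 0.62 ± 0.13 (SE, adjusted p = 0.14); all 3 of its probes were higher. Il6st, the shared receptor subunit gp130, differed by 0.54 ± 0.13 (SE, adjusted p = 0.168), and Cish, another inhibitor of the family, by 0.92 ± 0.25 (SE, adjusted p = 0.192). Of 16 tested genes of the interleukin-6, JAK and STAT list, 9 had the treated arrays all higher and none all lower. The shares over all genes were 11.6% and 10.7%. The list median was 0.33.

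Chemokine and NF-kappa-B target genes were higher on average in treated cells, with 1 call. Of the 21 tested, 5 entered through detection in 1 group alone, against 724 of 9388 over all genes. Cxcl13 was among them and entered through the treated group. Such entries push the average toward the group they entered through. Cxcl9, an interferon-gamma induced chemokine that attracts T cells, measured 13.38, 11.93 and 12.20 with U73122 and 9.99, 10.34 and 9.90 without it and rose by 2.43 ± 0.33 (SE, adjusted p = 0.0411). Treated replicate 1 was the highest array. Cxcl13, a chemokine for B cells, had signals of 7.53, 6.17 and 7.29 on the treated and 4.49, 5.42 and 4.60 on the untreated arrays, was detected on 3 treated and 1 untreated arrays, and differed by 2.16 ± 0.38 (SE, adjusted p = 0.102). Vcam1, an adhesion molecule for leukocytes, differed by 1.12 ± 0.25 (SE, adjusted p = 0.141) and Ccl5, a T cell chemokine, by 0.87 ± 0.26 (SE, adjusted p = 0.215). The median of the 21 tested genes was 0.71 with all arrays and 0.31 without treated replicate 1. Without it 3 genes of the list passed.

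Interferon-induced and antigen presentation genes gave no calls, although their groups often did not overlap. Gbp2, an interferon-induced GTPase, read 12.12, 10.69 and 11.09 after treatment and 8.94, 9.48 and 9.13 in untreated cells and differed by 2.11 ± 0.33 (SE, adjusted p = 0.0772). Of 20 interferon-induced genes, 10 had the treated arrays all higher and 1 all lower, against 11.6% and 10.7% of all genes. Their median was 0.40, and 9 were higher and 1 lower at an unadjusted p under 0.05. Tgtp1, another such GTPase, was detected on no untreated array and was at least 1.79-fold higher on the treated arrays (adjusted p = 0.114). Of 19 antigen presentation and immunoproteasome genes (15 higher and 0 lower at an unadjusted p under 0.05), 16 had the treated arrays all higher, and the median was 0.76. H2-Aa, a class II chain that presents peptides to helper T cells, stood at 10.57, 9.90 and 10.02 in the treated and at 9.15, 8.72 and 8.98 in the untreated replicates and differed by 1.22 ± 0.19 (SE, adjusted p = 0.0802). Psme1, a proteasome activator subunit, differed by 0.62 ± 0.11 (SE, adjusted p = 0.107), Psmb8, a catalytic subunit of the immunoproteasome, by 0.93 ± 0.18 (SE, adjusted p = 0.11), and Nlrc5, a regulator of class I genes, by 0.76 ± 0.15 (SE, adjusted p = 0.115). Without treated replicate 1, 4 of the 19 passed, H2-Aa among them, and all 4 were higher in treated cells. Of the 20 interferon-induced genes, 2 higher and 1 lower passed there: Gbp2 and Tgtp1 were higher, and Oasl1, an interferon-induced relative of the oligoadenylate synthetases, was lower.

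Markers of blood and tissue macrophages were higher on the same arrays. All 21 tested macrophage and Kupffer cell markers had a higher treated mean, 15 with no overlap, against 11.6% of all genes. Of these markers 0 passed limma's adjusted threshold. An unadjusted p under 0.05 was reached by 16, against 14.9% of all genes in either direction. Their summed normalized signal ran from 28922 to 50802 on the treated and from 22037 to 27853 on the untreated arrays, and their median log2 level was 10.26, 9.68 and 9.57 in the treated and 9.12, 8.96 and 8.83 in the untreated replicates. Marco, a scavenger receptor of macrophages, measured 10.24, 8.84 and 8.74 with U73122 and 6.83, 7.37 and 6.98 without it and differed by 2.22 ± 0.37 (SE, adjusted p = 0.0889). Adgre1, an adhesion receptor of tissue macrophages, differed by 1.27 ± 0.22 (SE, adjusted p = 0.102), Timd4, a Kupffer cell receptor, by 1.25 ± 0.22 (SE, adjusted p = 0.102), and Aif1, a myeloid calcium-binding protein, by 1.33 ± 0.26 (SE, adjusted p = 0.114). The median difference of the list was 0.78, and 0.60 without treated replicate 1. Without that array 9 of the 21 passed. Of 22 markers with a probe, all 6 arrays detected 21 and none detected the last.

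Neutrophil and monocyte markers were highest on treated replicate 1. S100a9, a calcium-binding protein of neutrophils, had signals of 9.82, 7.66 and 8.20 on the treated and 6.62, 6.66 and 6.70 on the untreated arrays and differed by 1.90 ± 0.46 (SE, adjusted p = 0.161). S100a8, its partner, read 11.17, 8.71 and 9.66 after treatment and 8.22, 8.09 and 8.16 in untreated cells and differed by 1.69 ± 0.51 (SE, adjusted p = 0.212). For both, treated replicate 1 was over 1 log2 unit above the other treated arrays. The 6 tested markers, which include Lcn2, had a summed signal from 12189 to 24634 on the treated and from 3656 to 5705 on the untreated arrays. Lcn2, counted above as an acute phase gene, made up 84.5% to 93.5% of that sum on the treated and 86.5% to 90.9% on the untreated arrays. The other 5 markers summed to 796 to 3811 and 493 to 529. The median difference of the 6 was 1.79, or 1.15 without treated replicate 1, where 3 passed. Of the 14 markers with a probe, all 6 arrays detected 5 and none detected 2. Among 8 tested lymphocyte markers, the median was 0.50, with Cd3g, a T cell receptor subunit, at 0.55 ± 0.14 (SE, adjusted p = 0.17) and 8 of 17 markers on the array detected on none. The 6 tested erythroid markers were split, 3 higher and 3 lower, with 0 calls in limma's test (3 higher and 2 lower at an unadjusted p under 0.05). The hemoglobin genes Hbb-bs, Hbb-bt and Hba-a1 were the higher ones, with Hbb-bs at 0.58 ± 0.13 (SE, adjusted p = 0.141), while Tfrc, the transferrin receptor, which other cells also make, differed by -0.71 ± 0.12 (SE, adjusted p = 0.0889), Klf1, an erythroid transcription factor, by -0.52 ± 0.15 (SE, adjusted p = 0.21) and Alas2, the erythroid enzyme of heme synthesis, by -0.19 ± 0.15 (SE, adjusted p = 0.558). Without treated replicate 1, Tfrc passed. Endothelial markers had a median of 0.07 over 17 genes (-0.02 to 0.10 with each array left out in turn) and stellate cell and matrix genes one of -0.03 over 16 (-0.18 to 0.17). In these bulk samples, fewer or more cells of a type and less or more RNA per cell cannot be told apart, and the part of blood and immune cells in the acute phase, chemokine and antigen presentation results was not tested.

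**Figure D3:**
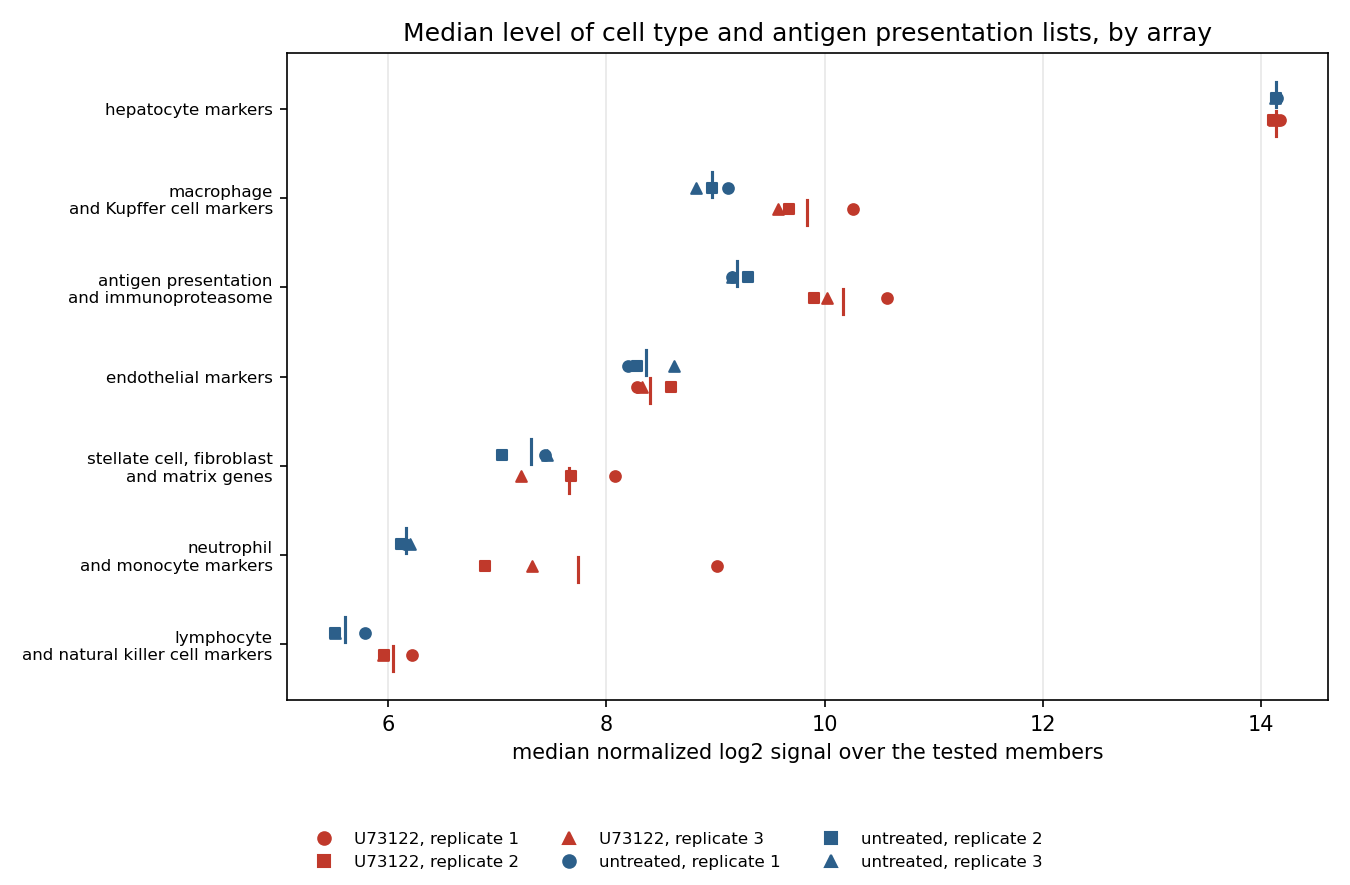
Median normalized log2 signal (x axis) over the tested members of 7 lists on each array labelled mouse 7; shapes give the replicate, colours the group and vertical bars the mean of the 3 array medians. Hepatocyte markers coincide near the top of the scale, and the macrophage, antigen presentation and neutrophil medians are highest on treated replicate 1.

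Metal handling genes included a rise and a fall. Mt2, a metallothionein that binds zinc and copper and is induced by metals, glucocorticoids and the acute phase, stood at 9.02, 8.70 and 9.79 in the treated and at 5.71, 6.77 and 6.76 in the untreated replicates and rose by 2.76 ± 0.35 (SE, adjusted p = 0.0325). Mt1, its neighbour in the metallothionein cluster, measured 14.32, 14.43 and 14.34 with U73122 and 13.20, 13.79 and 13.67 without it and differed by 0.81 ± 0.15 (SE, adjusted p = 0.107); its levels lie near the top of the scale. Slc30a10, a manganese exporter, had signals of 5.20, 5.63 and 5.32 on the treated and 6.87, 6.77 and 6.62 on the untreated arrays and fell, with a difference of -1.37 ± 0.16 (SE, adjusted p = 0.031). The 16 tested genes of the list had a median of -0.06 (-0.17 to -0.06 with each array left out in turn). Without treated replicate 1, Mt1 and Tfrc passed as well. Of 15 glucocorticoid-induced genes, Lcn2 and Mt2 rose, none fell and the median was -0.01. Tat, a liver gene induced by glucocorticoids, differed by 0.61 ± 0.19 (SE, adjusted p = 0.227) and Dusp1, a phosphatase induced by them, by -0.83 ± 0.30 (SE, adjusted p = 0.256).

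Both calls among amino acid breakdown genes were enzymes of the tyrosine route. Hgd, homogentisate dioxygenase, read 12.38, 12.23 and 12.68 after treatment and 10.96, 10.73 and 10.62 in untreated cells and its brighter probe rose by 1.66 ± 0.15 (SE, adjusted p = 0.00683), while a second probe differed by -0.07, so the 2 probes disagree. Fah, fumarylacetoacetase, the last enzyme of the route, stood at 13.17, 13.24 and 13.28 in the treated and at 12.69, 12.56 and 12.60 in the untreated replicates and rose by 0.61 ± 0.09 (SE, adjusted p = 0.0466). Hpd, the enzyme before Hgd, averaged 11.93 ± 0.15 on the treated and 10.49 ± 0.68 on the untreated arrays (SD, n = 3 each) and differed by 1.44 ± 0.29 (SE, adjusted p = 0.125). The treated arrays of all 3 genes lay above the untreated arrays, and Fah had the tightest groups. Over the 26 tested urea cycle and amino acid genes, 2 rose and none fell, and the median was -0.23, or -0.12 without treated replicate 1. The treated arrays were all lower for 10 and all higher for 4, against 10.7% and 11.6% of all genes. Cps1, the first enzyme of the urea cycle, differed by -0.33 ± 0.10 (SE, adjusted p = 0.213).

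Ppp1r3b and Ppp1r3c, subunits that bring protein phosphatase 1 to glycogen, both fell. Ppp1r3b, the form known best from liver, had signals of 9.12, 9.06 and 9.46 on the treated and 10.90, 10.90 and 10.83 on the untreated arrays and differed by -1.66 ± 0.13 (SE, adjusted p = 0.00437); its 2 probes differed by -1.66 and -1.87. Ppp1r3c, a related subunit, read 7.90, 8.16 and 8.49 after treatment and 10.37, 9.88 and 10.14 in untreated cells and differed by -1.94 ± 0.19 (SE, adjusted p = 0.00828). The untreated arrays of Ppp1r3b lay within 0.1 log2 units of each other, well above all treated arrays. Gys2, liver glycogen synthase, stood at 7.93, 8.50 and 8.68 in the treated and at 9.07, 9.62 and 9.07 in the untreated replicates and differed by -0.89 ± 0.23 (SE, adjusted p = 0.174). Pklr, liver pyruvate kinase, measured 5.23, 6.70 and 7.21 with U73122 and 7.31, 7.88 and 8.03 without it and differed by -1.36 ± 0.45 (SE, adjusted p = 0.24). Of 13 tested genes of glycolysis and glycogen, 2 fell and none rose, and the median was -0.47, or -0.21 without treated replicate 1. For 6 the treated arrays were all lower, against a background of 10.7%. This list too was chosen with earlier results known, so the comparison is a description.

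Genes of fatty acid synthesis were lower on the treated arrays, with 1 call. Mid1ip1, which promotes polymerization of acetyl-CoA carboxylase, had signals of 8.36, 7.58 and 8.44 on the treated and 10.41, 10.28 and 9.74 on the untreated arrays and differed by -2.02 ± 0.26 (SE, adjusted p = 0.0325). Thrsp, its paralog, which is named here because of its values, read 5.46, 7.91 and 9.70 after treatment and 11.09, 11.40 and 12.23 in untreated cells. Its groups did not overlap, but its treated arrays ranged over more than 4 log2 units, and the difference of -3.88 ± 0.89 (SE, adjusted p = 0.142) did not pass. Fasn, fatty acid synthase, was detected on no treated array and was at least 2.02-fold lower there (adjusted p = 0.102). Elovl6, a fatty acid elongase, differed by -1.28 ± 0.24 (SE, adjusted p = 0.108) and Acly, which makes cytosolic acetyl-CoA, by -0.67 ± 0.14 (SE, adjusted p = 0.134). Of 21 tested genes 10 had the treated arrays all lower and 0 all higher, against 10.7% and 11.6% of all genes. The median was -0.52, or -0.31 without treated replicate 1, where 3 genes passed, all lower.

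Cholesterol synthesis gave no call. Of 19 tested genes 18 had a lower treated mean, 4 with no overlap, against 10.7% of all genes. In limma's test 7 reached an unadjusted p under 0.05, all lower, against 14.9% of all genes in either direction. Mvd, an enzyme of the mevalonate pathway, stood at 5.77, 5.78 and 6.41 in the treated and at 6.45, 6.99 and 7.30 in the untreated replicates and differed by -0.93 ± 0.26 (SE, adjusted p = 0.194). Insig1, which retains the regulator of the pathway in the endoplasmic reticulum, measured 7.07, 7.66 and 8.23 with U73122 and 8.28, 8.60 and 8.52 without it and differed by -0.81 ± 0.27 (SE, adjusted p = 0.238). Treated replicate 3 lay just below the untreated arrays for both. The median of -0.63 became -0.26 without treated replicate 1 and -1.05 without treated replicate 3. Fatty acid oxidation and PPAR alpha target genes had a median of 0.06 (-0.03 to 0.12 with each array left out in turn) and no call (4 higher and 1 lower at an unadjusted p under 0.05). Fgf21, a fasting hormone of the liver, had signals of 9.96, 9.82 and 9.81 on the treated and 11.22, 11.58 and 10.35 on the untreated arrays and differed by -1.18 ± 0.27 (SE, adjusted p = 0.142); Ehhadh, a peroxisomal oxidation enzyme, differed by 0.83 ± 0.20 (SE, adjusted p = 0.156). Gluconeogenesis and fasting genes had a median of -0.05 over 19 (-0.19 to 0.03), again with no call (2 higher and 2 lower at an unadjusted p under 0.05). Irs2, an adaptor of insulin signalling, differed by 0.75 ± 0.21 (SE, adjusted p = 0.192).

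**Figure D4:**
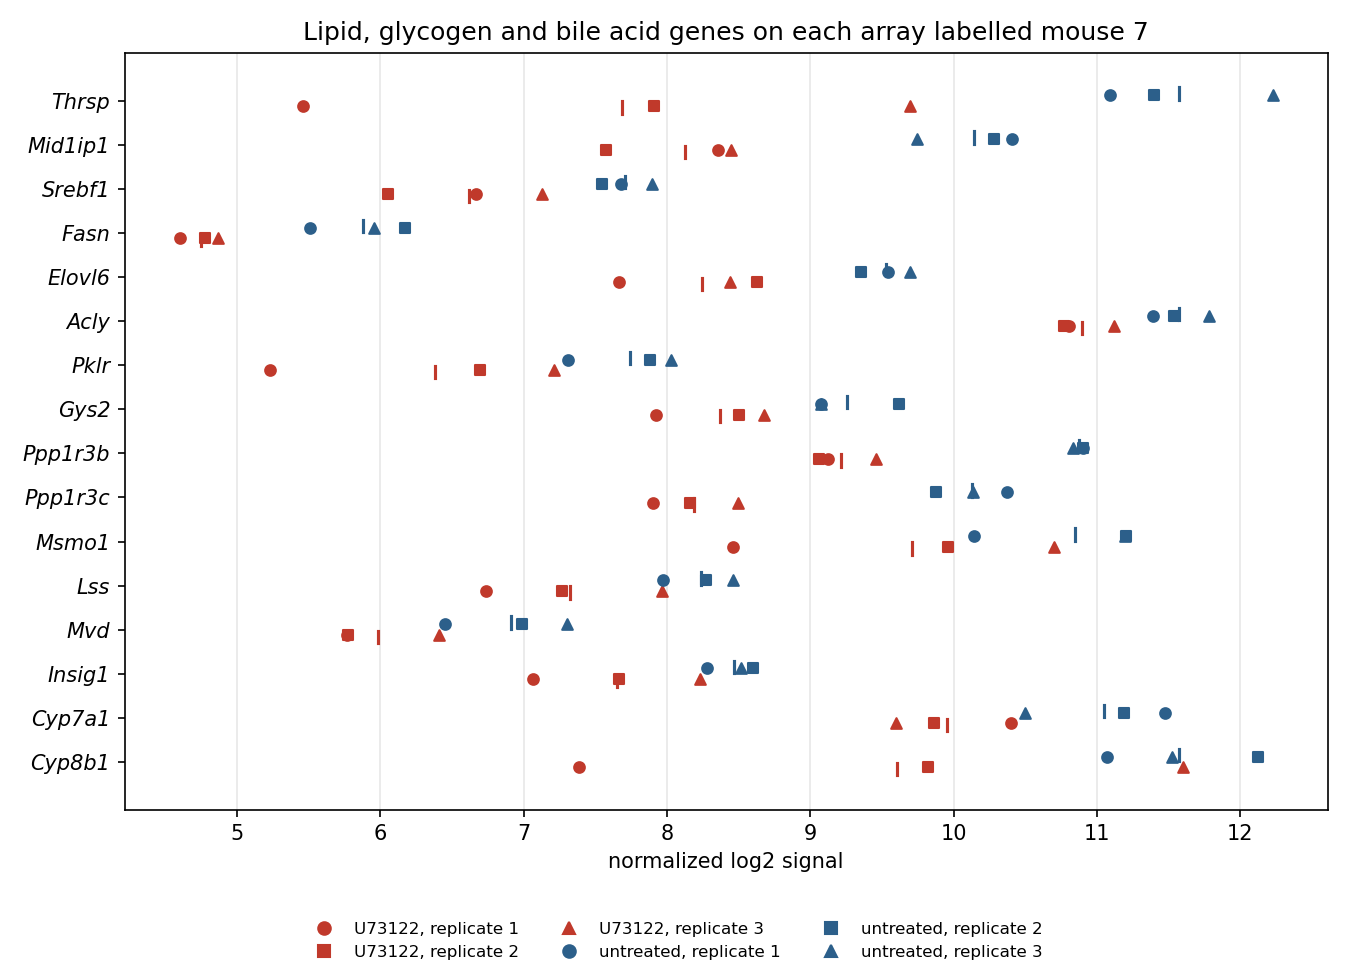
Normalized log2 signal (x axis) of 16 lipid, glycogen and bile acid genes on each array labelled mouse 7; shapes give the replicate, colours the group and vertical bars the group means (n = 3). Mid1ip1, Ppp1r3b and Ppp1r3c passed the test, and Thrsp, Pklr and Cyp8b1 show a low treated replicate 1.

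Among cytochrome P450 genes, Cyp26a1, which breaks down retinoic acid, read 7.40, 7.71 and 8.03 after treatment and 9.32, 8.88 and 9.11 in untreated cells and fell, with a difference of -1.39 ± 0.19 (SE, adjusted p = 0.0376); its dimmer probe differed by -0.59. Cyp7a1, the rate-limiting enzyme of bile acid synthesis, stood at 10.40, 9.86 and 9.60 in the treated and at 11.47, 11.19 and 10.50 in the untreated replicates and differed by -1.10 ± 0.28 (SE, adjusted p = 0.17). Cyp8b1, which directs synthesis to cholic acid and is also named here because of its values, measured 7.39, 9.82 and 11.60 with U73122 and 11.07, 12.12 and 11.52 without it. Treated replicate 3 lay among the untreated arrays, and the difference was -1.97 ± 0.88 (SE, adjusted p = 0.34). Of 23 tested P450 genes 1 fell and none rose, with a median of -0.27, or -0.10 without treated replicate 1, where Cyp7a1 passed as well. None of 23 conjugating enzymes and transporters passed (1 higher and 5 lower at an unadjusted p under 0.05), with a median of -0.23, or -0.09 without treated replicate 1. Ugt1a1, the bilirubin-conjugating enzyme, differed by -0.83 ± 0.27 (SE, adjusted p = 0.237).

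The last genes called belong to other groups. Ctla2b, a cysteine protease inhibitor, had signals of 6.59, 6.04 and 6.19 on the treated and 4.95, 4.85 and 4.79 on the untreated arrays, was detected on 3 treated and 1 untreated arrays and rose by 1.41 ± 0.18 (SE, adjusted p = 0.0325). Bhlhe40, a repressor that feeds into the circadian clock, averaged 9.88 ± 0.14 on the treated and 10.85 ± 0.16 on the untreated arrays (SD, n = 3 each) and fell, with a difference of -0.97 ± 0.13 (SE, adjusted p = 0.0332). It was the only call among 12 tested clock genes. Their median was -0.17, or 0.01 without treated replicate 1 and -0.30 without treated replicate 3. Per2, a core clock gene, differed by -0.54 ± 0.16 (SE, adjusted p = 0.202). Hepatocyte transcription factors had a median of -0.01 over 13 genes and no call (0 higher and 0 lower at an unadjusted p under 0.05), with Hnf4a at 0.27 ± 0.15 (SE, adjusted p = 0.408) and Cebpa, a C/EBP factor, at -0.42 ± 0.25 (SE, adjusted p = 0.435).

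**Figure D5:**
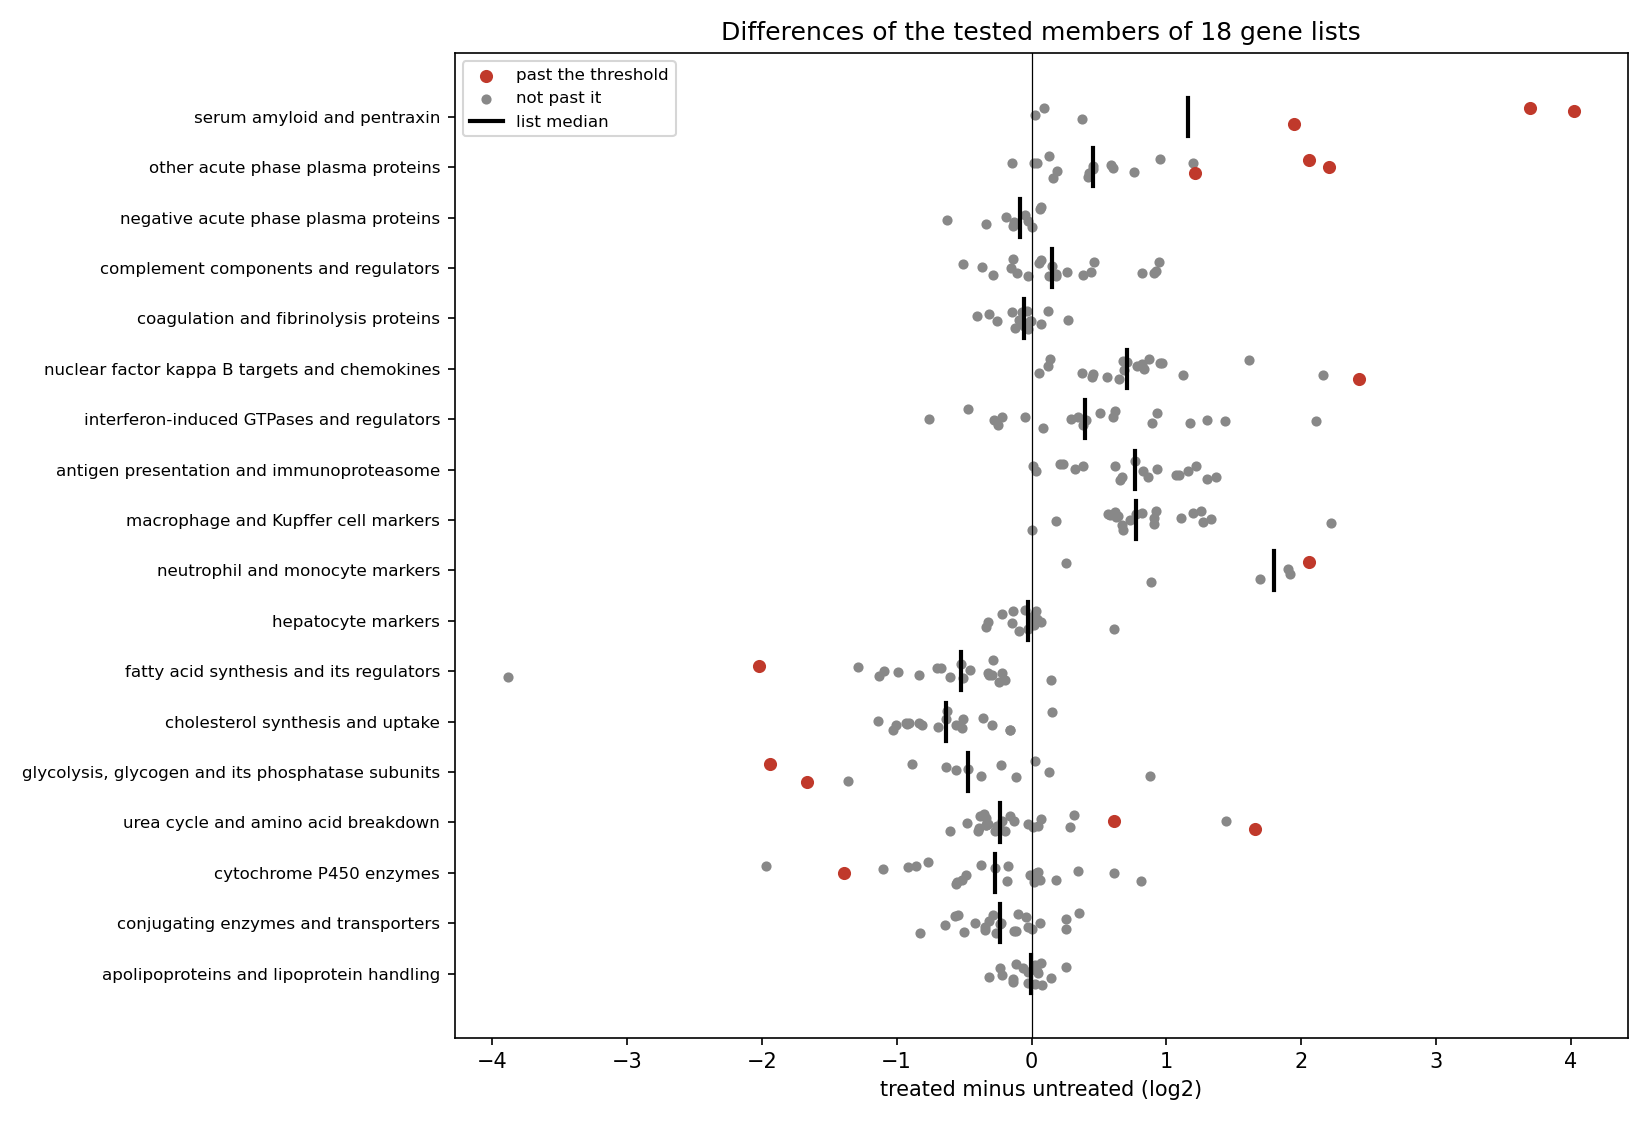
Treated minus untreated difference (log2, x axis) of each tested member of 18 gene lists; each point is a gene, larger red points passed an adjusted p of 0.05 and black bars are list medians. The serum amyloid, antigen presentation and macrophage medians lie right of 0 (1.16, 0.76 and 0.78), and the fatty acid and cholesterol synthesis medians lie left of it (-0.52 and -0.63).

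Genes near the drug's stated target gave no call. Of 16 listed phospholipase C genes, 14 were on the array and 7 were tested (2 higher and 0 lower at an unadjusted p under 0.05). Of the 7, 3 passed the filter through the untreated group alone, Plce1 among them, against 724 of 9388 genes through either group alone. Each untreated array detected all 7, and the treated arrays detected 6, 6 and 4. Such entries push the average toward the untreated group. The median of the 7 was 0.28. It was 0.05 without treated replicate 1 and 0.56 without treated replicate 3. Plcl2, a catalytically inactive relative, stood at 7.91, 8.08 and 7.61 in the treated and at 6.77, 6.90 and 7.35 in the untreated replicates and differed by 0.86 ± 0.19 (SE, adjusted p = 0.142). Plcb2 and Plcg2, both known from blood cells, differed by 0.62 ± 0.21 (SE, adjusted p = 0.24) and 0.52 ± 0.23 (SE, adjusted p = 0.336). Treated arrays were all above untreated arrays for these 3 of the 7 genes and all below for 0, against 11.6% and 10.7% of all genes. Both blood cell forms were highest on treated replicate 1. The 24 tested protein kinase C, diacylglycerol and inositol phosphate genes had a median of 0.14 (3 higher and 0 lower at an unadjusted p under 0.05). Rasgrp1, a diacylglycerol-responsive activator of RAS in lymphocytes, measured 8.20, 7.14 and 6.74 with U73122 and 6.35, 6.11 and 5.95 without it and differed by 1.22 ± 0.33 (SE, adjusted p = 0.192). RAS, ERK and WNT output genes had a median of -0.07 over 15 genes, or -0.18 without treated replicate 1 (1 higher and 3 lower at an unadjusted p under 0.05). Notum, an extracellular WNT inhibitor, differed by -0.72 ± 0.22 (SE, adjusted p = 0.215) and Lgr5, a WNT target, by -0.63 ± 0.26 (SE, adjusted p = 0.309).

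Stress and growth programmes gave no call either. The medians were 0.23 for 11 NRF2 antioxidant targets, -0.04 for 13 ATF4 and serine synthesis genes, -0.09 for 21 unfolded protein and heat shock genes and -0.03 for 11 p53 targets. They were -0.12 for 15 immediate early genes and 0.03 for 19 mitosis and replication genes. With each array left out in turn they ran from 0.16 to 0.26, -0.17 to 0.04, -0.13 to 0.02, -0.22 to 0.20, -0.20 to 0.17 and -0.14 to 0.25, in the same order. The mitosis median was 0.25 without treated replicate 3, 0.21 without untreated replicate 1 and -0.14 without untreated replicate 2. Unadjusted p-values under 0.05 in limma's test numbered 0 for NRF2, 1 for ATF4, 2 for chaperones and 2 for p53 genes. They numbered 5 for immediate early and 5 for mitosis genes, and all those for mitosis were higher in treated cells. Over all genes the share was 14.9%. Within the mitosis list Birc5, an inhibitor of apoptosis made in dividing cells, had signals of 7.67, 7.85 and 6.94 on the treated and 7.18, 5.92 and 6.26 on the untreated arrays and differed by 1.03 ± 0.35 (SE, adjusted p = 0.24). Its groups overlapped at untreated replicate 1.

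Whether the response differed from that under the other 2 mouse labels was tested as a difference of differences, in 1 limma fit over all 18 arrays. The labels differ in the tissue whose transcripts they carry. Ucp1, a brown fat marker, was detected on 6 arrays of label 1 and 1 of label 5. Ckm, a skeletal muscle marker, was detected on 5 and 6, and Hpx on 0 and 1. A difference between labels cannot be told apart from one between tissues. Of 7570 genes detected under every label, 16 (0.211%) passed, 12 with a more positive and 4 with a more negative difference under label 7. Mt2 was among them: its difference on this scale was 2.52 under label 7, -0.78 under label 1 and -1.41 under label 5 (adjusted p = 0.014). Mid1ip1 differed by -1.88, 0.24 and -0.18 under labels 7, 1 and 5 (adjusted p = 0.0153) and Ppp1r3c by -1.81, 0.58 and -0.37 (adjusted p = 0.0178). Ctla2b passed as well, so 4 of the 9 called genes that entered the test passed it. The other 5 did not: Ppp1r3b, Bhlhe40, Lcn2, Socs2 and Fah had adjusted p-values of 0.0833, 0.303, 0.345, 0.578 and 0.66. Of the 19 called genes, 10 did not enter it because they were not detected in a group of every label; Saa2, Serpina3f, Cyp26a1 and Slc30a10 were detected on 0 of the 12 arrays of labels 1 and 5. The number of calls fell to 6 without untreated replicate 1 of label 7, and to 10 without either of its other untreated replicates, and was 23 without treated replicate 3. Under labels 1 and 5 the Y-linked gene Eif2s3y was detected on 4 of the 6 untreated and 0 of the 6 treated arrays. The part of this mismatch in each gene's difference was not tested. Leaving those 4 arrays out keeps only untreated replicate 2 of each of these labels, so no conclusion is drawn from that fit.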

How the data were processed

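Total RNA was measured on Illumina mouse bead arrays. The deposited non-normalized table holds a background-subtracted intensity per probe and, per the file headers, a detection p-value; the series matrix holds intensity values that the authors quantile normalized, as the values show. Which software scanned them, and which chip held each array, is not given in the sources used here. Probes were named through the platform annotation (34885 with 1 symbol, 18 with several, 10378 with none; 34807 matched by Entrez number, 0 renamed). The 6 arrays were background corrected and quantile normalized with neqc (limma 3.58.1, R 4.3.3, offset 16) and taken to log2. A probe entered when all 3 arrays of 1 group or both detected it at p under 0.05, and a gene was read from its brightest probe. Groups were compared with lmFit and eBayes (intensity trend, two-sided, Benjamini-Hochberg). The 18-array fit used group means. "At least" folds set the dim group to the lowest detected signal. Scripts were tested on simulated data. Members and the 46 gene lists were chosen with earlier results of these data known. Named genes were the 15 largest rises and falls, filled by p, at most 4 members per list, chosen by p, called members, markers and a few fixed genes.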

Additional observations from a re-analysis of the deposited data

Results flagged for a closer look

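The response under label 7 differed from the mean response under labels 1 and 5 for 16 of 7570 genes (limma, 1 fit over 18 arrays, adjusted p under 0.05). The labels also differ in the tissue whose transcripts they carry, which cannot be told apart from a difference in response. The 6 genes with the smallest p are given as label 7 minus the mean of the other labels, on the log2 scale. Psmb8, the immunoproteasome subunit, gave 1.43 (treated minus untreated 0.88 under label 7, -0.79 under label 1 and -0.32 under label 5; adjusted p = 0.00233). Gbp2, an interferon-induced GTPase, gave 2.29 (treated minus untreated 2.03 under label 7, -0.29 under label 1 and -0.23 under label 5; adjusted p = 0.00233). Gvin1, a very large interferon-induced GTPase, gave 1.81 (treated minus untreated 1.28 under label 7, -0.49 under label 1 and -0.58 under label 5; adjusted p = 0.00699). Psmb8, Gbp2 and Gvin1 were higher in treated cells under label 7 and lower under labels 1 and 5. Ctla2b, the protease inhibitor, gave 1.39 (treated minus untreated 1.30 under label 7, 0.01 under label 1 and -0.19 under label 5; adjusted p = 0.00233). Tiam1, an activator of the GTPase Rac, gave -1.69 (treated minus untreated -0.23 under label 7, 0.23 under label 1 and 2.70 under label 5; adjusted p = 0.00751), so its place rests on label 5. 1190007I07Rik, whose role is not described here, gave 1.60 (treated minus untreated -0.28 under label 7, -1.87 under label 1 and -1.89 under label 5; adjusted p = 0.00751), so its place rests on labels 1 and 5. Under labels 1 and 5, 4 of the 6 untreated arrays carried the Y-linked gene Eif2s3y and none of the 6 treated arrays did. The part of that mismatch in these differences was not tested gene by gene.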

How the results depend on the processing

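For the label 7 response, 19 genes passed. The count was 94 with normalization and spread pooled over all 18 arrays, 7 without further background correction, 8 with the mean of a gene's probes, 9 without an intensity trend, 128 with array quality weights and 5 at an adjusted p under 0.01. Leaving out each array in turn gave 0 to 97. The cause of these moves was not tested, except that the stricter threshold lowers a count by construction. The count stayed within 1.5 times of 19 with normalization over 18 arrays, the series matrix values, a neqc offset of 50, stricter or no detection filters and robust variances. For the difference between labels, 16 genes passed. The count was 10 against label 5 alone, 6 at an adjusted p under 0.01 and 6 to 23 when each array of label 7 was left out. It was 845 without the 4 arrays of labels 1 and 5 that carry Eif2s3y, an alternative chosen after seeing the data. That alternative keeps only untreated replicate 2 of each of labels 1 and 5, so no conclusion is drawn from its count. Same-numbered arrays deviated from their group means with correlations of 0.31, 0.01 and 0.14, and not every array correlated best with its own number. Same-numbered arrays were therefore not treated as pairs. With 3 arrays per group these values cannot settle whether they share more than a number. With the replicate number as a block, 33 genes passed for label 7 and 25 for the difference. Over 180 named genes and all alternatives for label 7, 2993 of 3217 values stayed on their side of the threshold without a change of sign beyond 1 SE, 115 lost the call and 101 gained one. Another 8 values, of genes not called, changed sign by more than 1 SE, and 0 calls reversed. The 3 arrays per group limit the precision.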

Other observations

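The following genes, of which Pdk4 belongs to the fatty acid oxidation list and the others to no list, passed limma's adjusted threshold when treated replicate 1 was left out, and are given here as values chosen after they were seen. Pdk4, a kinase that limits glucose oxidation in fasting, read 7.59, 10.14 and 10.25 after treatment and 7.85, 7.53 and 8.66 in untreated cells. It differed by 1.31 ± 0.65 with all 6 arrays (SE, adjusted p = 0.385) and by 2.18 without treated replicate 1 (adjusted p = 0.0059), so the 3 treated arrays disagree about this gene. Id2, an inhibitor of basic helix-loop-helix factors, stood at 11.03, 10.16 and 10.12 in the treated and at 11.51, 11.97 and 11.50 in the untreated replicates. It differed by -1.22 ± 0.25 with all 6 arrays (SE, adjusted p = 0.125) and by -1.52 without treated replicate 1 (adjusted p = 0.00159). Hes1, a repressor downstream of Notch, measured 8.04, 7.18 and 7.25 with U73122 and 8.78, 8.55 and 8.52 without it and differed by -1.13 ± 0.23 with all 6 arrays (SE, adjusted p = 0.125), or -1.41 without treated replicate 1 (adjusted p = 0.00161). Ubd, a ubiquitin-like protein induced by interferon-gamma and tumour necrosis factor, had signals of 12.40, 10.49 and 10.79 on the treated and 9.31, 8.95 and 8.49 on the untreated arrays. It differed by 2.31 ± 0.45 with all 6 arrays (SE, adjusted p = 0.119) and by 1.72 without treated replicate 1 (adjusted p = 0.0059).

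The Y-linked gene Eif2s3y was detected on all 6 arrays labelled mouse 7, at levels between 8.14 and 8.50 over the normalization of all 18 arrays. Under each of labels 1 and 5 it was detected on untreated replicates 1 and 3 and on none of the other 4 arrays.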
